A study of Mus musculus with 18 samples.

Results

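The histone genes of mouse cortex comprised 45 of the 13784 genes in the authors' deposited tables, taken by symbol (names beginning with Hist1h to Hist4h, H1f, H2a, H2b, H3c, H3f, H4c, H4f or Macroh2a). By their names in the GENCODE M21 annotation, 35 of them were replication-dependent genes of the histone clusters, with 4 encoding the linker histone H1, 5 H2A, 8 H2B, 5 H3 and 13 H4. The other 10, with other names there, were grouped as variant genes, namely H1f0, H1f10, H2afj, H2afv, H2afx, H2afz, H3f3a, H3f3b, Macroh2a1 and Macroh2a2. The family was chosen by its fold changes after LPS in control mice, where several members stood among the largest falls, so the values of that comparison are given as a description.

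Bulk RNA came from the cortex of 18 mice aged 4 to 6 months. Lipopolysaccharide (LPS), which coats Gram-negative bacteria and provokes innate immunity, was injected intraperitoneally at 5 mg/kg, and tissue was taken 72 hours after injection. The groups were 4 control mice given saline, 5 control mice given LPS, 4 mice with Chd8 deleted conditionally in astrocytes (cKO) given saline, and 5 cKO mice given LPS. The labels name neither the Cre driver nor the sex of the mice nor a batch. Every title carries the word saline, so groups follow the genotype label. Sample codes are plain numbers for saline and letters with numbers for LPS libraries, and any difference in preparation cannot be told apart from treatment. Back-calculated levels of Chd8, the deleted gene, were 6.62 log2 CPM in control saline, 6.96 in control LPS, 6.51 in cKO saline and 6.96 in cKO LPS, in tissue of which astrocytes make up only some cells. Its log2 fold change between genotypes after LPS was 0.02 ± 0.05 (FDR = 0.901) in the authors' deposited table, so whole cortex does not show the deletion. The deposited values are summaries over libraries, so no value per mouse, spread between mice or library depth is given here.

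Replication-dependent histone genes lie in clusters, mostly lack introns, and are transcribed chiefly in S phase, when new DNA must be packed into nucleosomes. Their mRNAs normally end in a conserved stem-loop bound by SLBP instead of a poly(A) tail, and are degraded when replication stops. Variant histones such as H3.3 and H2A.Z come from dispersed, mostly polyadenylated transcripts made throughout the cell cycle, and they supply chromatin in cells that no longer divide, such as neurons. Libraries made from ribosome-depleted total RNA, as here, can hold both kinds of transcript.

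All 13 replication-dependent H4 genes annotated as protein-coding in GENCODE M21 were in the tables. Coverage was lower for the other classes, with 4 of 6 H1, 5 of 18 H2A, 8 of 18 H2B and 5 of 12 H3 genes. Of the 35, 25 lie on chromosome 13, 7 on chromosome 3, 2 on chromosome 11 and 1, H4f16, on chromosome 6. The stem-loop is shown because it is the usual 3′ end feature of replication-dependent histone mRNAs. An exact match stood in the annotated transcript of 18 of the 35 replication-dependent genes and of 0 of the 10 variants. An annotation that ends before the stem-loop gives no match, so absence here says only that these letters are not in the annotated transcript. In H4 genes the match was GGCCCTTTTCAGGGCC, in 7 genes and 26 to 55 bases after the stop codon. In H1, H2A, H2B and H3 genes it was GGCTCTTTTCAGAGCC, in 3, 4, 3 and 1 genes, 25 to 41, 39 to 59, 29 to 30 and 32 bases after the stop codon. Capitals mark the stem-loop in these GRCm38 transcript sequences of GENCODE M21, printed 5′ to 3′ with up to 5 flanking bases. Hist1h4m, which was called lower in both genotypes, and H4c4, called lower in controls, are shown for H4, and the others stand for H2A, H3, H2B and H1.
Hist1h4m: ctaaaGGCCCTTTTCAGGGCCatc
H4c4: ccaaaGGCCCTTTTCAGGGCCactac
H2ac19: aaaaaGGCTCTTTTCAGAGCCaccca
H3c4: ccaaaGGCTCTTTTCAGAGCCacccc
H2bc8: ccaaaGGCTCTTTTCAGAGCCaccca
H1f4: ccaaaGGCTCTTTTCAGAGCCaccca

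Promoter windows from RefSeq (GRCm38.p6, 250 bases before to 50 bases after the start) matched 40 of the 45 members, with 41 windows because H2bc6 had a pair of starts. Exact letters were searched on both strands, each window counted once per motif, and matches of different motifs could overlap. GGTCCG, the core of the H4 promoter element that HINFP binds in human cells, stood in 11 of 12 H4 windows (91.7%) and in 0 of the 16 H1, H2A and H2B windows. It was in 1 of 4 H3 windows, 4 of 9 variant windows and 8.25% of all 32851 promoter windows. The octamer ATTTGCAT, bound by OCT1 at H2B promoters, was in 5 of 7 H2B windows (71.4%), 2 of 5 H2A windows, 1 of 9 variant windows and 0 H4 windows, against 1.74% of all windows. CCAAT was in 20 of 20 H1, H2A, H2B and H3 windows but in 3 of 12 H4 windows, against 37.4% of all windows. TATAAA was in 8 of 12 H4, 3 of 4 H1, 4 of 7 H2B, 2 of 4 H3, 2 of 5 H2A and 1 of 9 variant windows. It was in 13.6% of all windows, and its H4 matches lay from -250 (H4c6) to 41 (H4c1) bases from the start. The 150 bases before the start are printed for Hist1h4m and H4c9, called lower in both genotypes, for H4c4, the member with the smallest p between genotypes, for an H2B gene with the octamer, and for the variant that rose in cKO mice. Capitals mark GGTCCG in the H4 genes and the octamer in H2bc8, with its reverse complement in H3f3b, and letters run 5′ to 3′ on the gene's strand.
Hist1h4m (chr13:21811596-21811745, plus strand): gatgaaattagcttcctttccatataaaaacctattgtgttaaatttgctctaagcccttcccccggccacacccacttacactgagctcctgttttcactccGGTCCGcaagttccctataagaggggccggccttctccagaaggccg
H4c9 (chr13:22041363-22041512, minus strand): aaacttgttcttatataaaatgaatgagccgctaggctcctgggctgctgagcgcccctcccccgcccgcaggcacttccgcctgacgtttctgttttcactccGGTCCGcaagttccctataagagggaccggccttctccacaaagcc
H4c4 (chr13:23581418-23581567, plus strand): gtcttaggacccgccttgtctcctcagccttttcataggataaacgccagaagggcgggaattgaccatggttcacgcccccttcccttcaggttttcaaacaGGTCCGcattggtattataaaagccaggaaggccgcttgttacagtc
H2bc8 (chr13:23571250-23571399, plus strand): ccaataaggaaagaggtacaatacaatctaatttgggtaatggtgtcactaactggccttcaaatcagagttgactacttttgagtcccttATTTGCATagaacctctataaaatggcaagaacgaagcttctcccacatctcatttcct
H3f3b (chr11:116024505-116024654, minus strand): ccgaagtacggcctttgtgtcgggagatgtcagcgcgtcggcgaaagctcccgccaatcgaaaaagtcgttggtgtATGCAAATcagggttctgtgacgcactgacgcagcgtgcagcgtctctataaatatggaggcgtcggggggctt

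Members of a class are so alike that reads can fit several of them. Coding sequences of H4 gene pairs shared a median of 93.9% of bases (lowest 85.3%, highest 100%, 78 pairs). Over whole transcripts, the share of 50-base windows also found in another gene had a median of 39.5% in H4 genes, from 1.01% in H4c14 to 89.8% in Hist1h4m. The median was 89.4% in H2A, 73.4% in H3, 35.1% in H2B and 4.17% in variant genes. Every window of H2ac19 occurred elsewhere. The submitters' notes list RSEM, which splits shared reads by estimate, so values of such genes are uncertain singly, and members are not independent of each other.

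In controls, LPS was followed by lower transcript levels of most H4 genes and several H3 and H2A genes, while 0 of 10 variants passed the test. Changes were called at an FDR (Benjamini-Hochberg adjusted p of edgeR's F test over all genes) below 0.05, and errors are standard errors (SE) derived from the fold change and F. In the authors' deposited table for controls, 16 of 45 members fell and 0 rose, against 3.31% of all genes lower and 6.46% higher. Because this comparison led to the choice of the family, nothing is read from that share. The 16 comprised 11 of 13 H4, 3 of 5 H3 and 2 of 5 H2A genes, with 0 of 8 H2B, 0 of 4 H1 and 0 of 10 variant genes. Of the 20 largest falls among changed genes with a symbol in the authors' deposited table, 11 were histone genes. That count restates how the family was chosen. In bulk tissue, fewer cells of a type and less RNA per cell cannot be told apart.

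Among H4 genes, which encode the histone that pairs with H3 at the nucleosome core, the median log2 fold change in the authors' deposited table was -0.81, against -0.00266 for all genes. The back-calculated level of Hist1h4m was 4.86 log2 CPM in control saline, 3.68 in control LPS, 4.66 in cKO saline and 3.77 in cKO LPS. Both saline groups stood above both LPS groups. Hist1h4m, a 1-exon gene at chr13:21811746-21812147 on GRCm38, fell by 1.18 ± 0.12 on the log2 scale in controls (FDR = 0.000557) in the authors' deposited table, and thus its level fell by 55.9%. This was the lowest fold change of all members, and 89.8% of this gene's windows recur in other genes.

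H4c8 and H4c4 share fewer windows with other genes (45.8% and 10.2%). H4c8 stood at 5.74, 4.89, 5.53 and 5.00 log2 CPM in control saline, control LPS, cKO saline and cKO LPS, and fell by 0.85 ± 0.10 in controls (FDR = 0.00122) in the authors' deposited table. H4c4 stood at 6.00, 5.28, 5.89 and 5.70 log2 CPM in the same order, and fell by 0.72 ± 0.11 in controls (FDR = 0.00426) in the authors' deposited table. The LPS level of H4c4 thus lay lower in control than in cKO mice, while those of H4c8 lay closer together. H4c3, with the highest mean log2 CPM of the H4 genes in the table of controls (not corrected for length), stood at 6.16, 5.36, 6.02 and 5.56 log2 CPM and fell by 0.79 ± 0.14 in controls (FDR = 0.00946) in the authors' deposited table.

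The remaining H4 calls in controls ranged from -0.56 ± 0.14 in H4c6 to -1.06 ± 0.28 in H4f16 in the authors' deposited table. H4f16, the H4 gene outside the clusters of chromosomes 3 and 13, shares only 7.07% of its windows, but with the trend of fold change on GC content and length removed its value of -0.99 was no longer called (FDR = 0.0585). Between them stood H4c9 (-1.04 ± 0.19), Hist1h4n (-0.97 ± 0.21), H4c2 (-0.85 ± 0.16), H4c12 (-0.81 ± 0.18) and H4c1 (-0.75 ± 0.12) in the authors' deposited table. H4c11 had -0.78 ± 0.24 (FDR = 0.0695) and H4c14 -0.12 ± 0.12 (FDR = 0.569) in the authors' deposited table, and neither was called. H4c14 lies in the cluster of chromosome 3 and is the H4 gene that shares the fewest windows. Of the 9 H4 genes with under 50% of windows shared, up to 45.8% in H4c8, 7 fell (median -0.78), as did 4 of the 4 others (median -0.91), and the part of shared reads in these values was not tested.

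The core histones H3 and H2A followed with fewer calls. H3c7 fell by 0.76 ± 0.14, H3c6 by 0.73 ± 0.18 and H3c13 by 0.70 ± 0.19 in controls in the authors' deposited table, and the median of the 5 H3 genes was -0.70. The call of H3c13 was lost in the same way (-0.52, FDR = 0.113). H3c11 had -0.54 ± 0.16 (FDR = 0.0611) and H3c4 -0.37 ± 0.16 (FDR = 0.157) in the authors' deposited table. Among H2A genes, H2ac19 fell by 1.00 ± 0.17 and H2aw by 0.35 ± 0.07 in the authors' deposited table. Back-calculated levels of H2ac19 were 4.60, 3.60, 4.34 and 3.91 log2 CPM in control saline, control LPS, cKO saline and cKO LPS. Its neighbour H2ac18, whose coding windows all recur in other genes, had -0.53 ± 0.26 (FDR = 0.202), and H2ac20 had -0.72 ± 0.22 (FDR = 0.0644), in the authors' deposited table. Hist1h2ao, with the lowest mean log2 CPM of the members, had -0.26 ± 0.78 in the authors' deposited table, an error too wide to place it.

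In controls, 0 of the H2B, H1 and variant genes passed the threshold. The 8 H2B genes ranged from -0.43 ± 0.18 in H2bu2 to 0.09 ± 0.17 in H2bc21 (median -0.27) in the authors' deposited table, and H2bc4, with the highest mean log2 CPM of these, had -0.02 ± 0.08. Linker histone H1f4 had -0.41 ± 0.12 (FDR = 0.0655) and H1f2 0.21 ± 0.17 (FDR = 0.458) in the authors' deposited table, so the H1 genes lay on either side of 0. H1f3 and H1f1 lay between them, at -0.30 ± 0.11 and -0.05 ± 0.16 in the authors' deposited table. The variants had a median of -0.09. H3f3a and H3f3b, both encoding the H3.3 protein that is deposited outside replication, had -0.13 ± 0.07 and 0.05 ± 0.06 in the authors' deposited table. The 7 other variants apart from H1f10 lay between -0.13 (H2afv) and -0.01 (Macroh2a2) in the authors' deposited table, including H2afz, encoding an H2A.Z protein, and H2afx, whose product is phosphorylated at DNA breaks. H1f10, encoding a linker histone variant, had the highest value of all members, 0.39 ± 0.20 (FDR = 0.225), in the authors' deposited table.

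**Figure D1:**
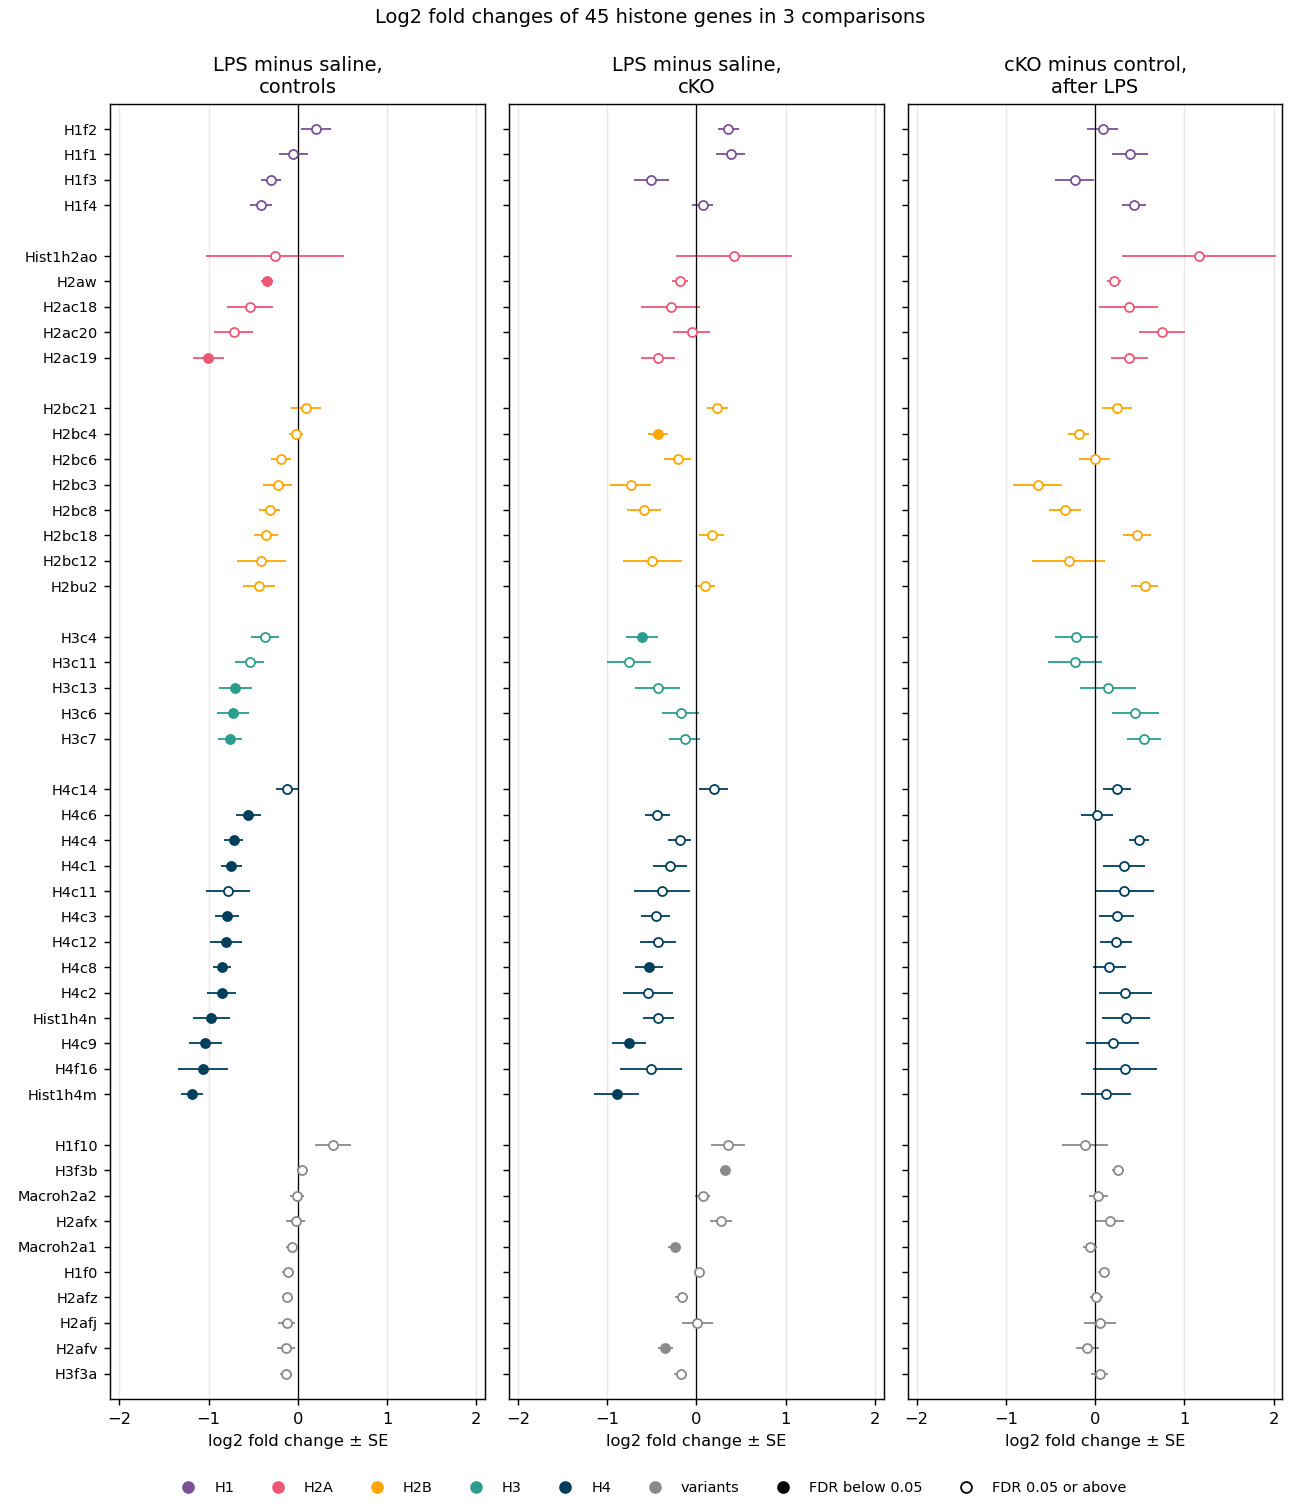
Log2 fold change ± SE of each of the 45 histone genes in the 3 deposited comparisons, by class, with filled points for an FDR below 0.05. In controls 16 points are filled and all lie left of 0, in cKO mice 7 filled points lie left and 1 right, and after LPS no genotype difference is filled.

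Summed over the class, the back-calculated H4 level was 328 CPM in control saline, 188 in control LPS, 293 in cKO saline and 220 in cKO LPS. H3 gave 38.8, 24.6, 35.6 and 28.3 CPM and H2A 74.1, 49.8, 71.2 and 60.7 CPM in the same order. In each of these classes both LPS groups lay below both saline groups. H2B sums moved less, at 87.6, 75.5, 89.5 and 78.6 CPM, as did H1 sums, at 83.9, 75.7, 78.8 and 86.2 CPM. Variant sums were 521, 498, 529 and 527 CPM. These levels assume libraries of equal weight and have no spread over mice.

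**Figure D2:**
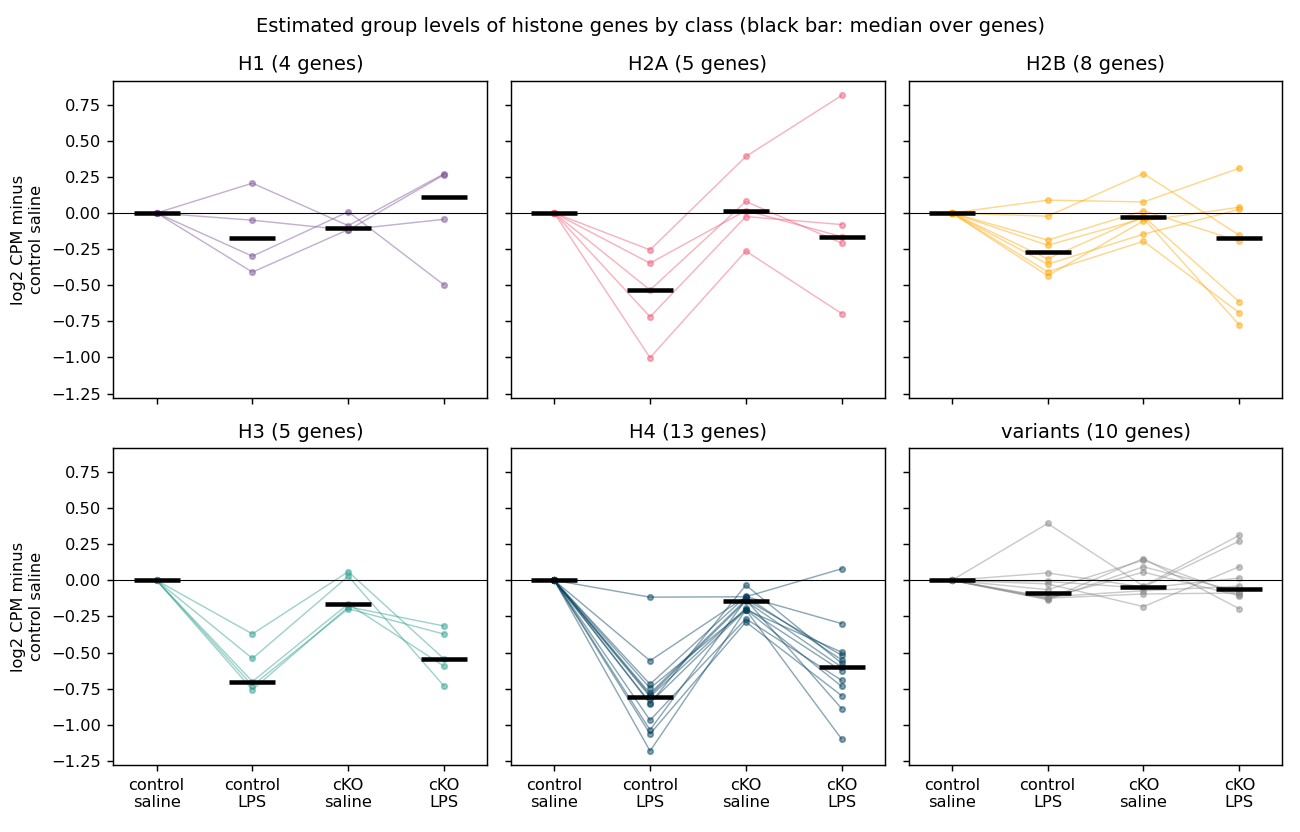
Back-calculated group level of each histone gene as log2 CPM minus its level in control saline, with a panel per class and black bars for medians over genes. The H4 median was -0.81 in control LPS, -0.14 in cKO saline and -0.60 in cKO LPS, while the variant medians stayed between -0.09 and 0.

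The cKO mice gave a comparison of LPS with saline that shares no library with that of controls. There 7 members fell and 1 rose in the authors' deposited table, that is 15.6% and 2.22% of the 45, against 8.52% of all genes lower and 10.9% higher. The H4 genes Hist1h4m (-0.89 ± 0.25, FDR = 0.0358), H4c9 (-0.75 ± 0.19, FDR = 0.0270) and H4c8 (-0.53 ± 0.16, FDR = 0.0424) fell in the authors' deposited table. So did H3c4 (-0.61 ± 0.18, FDR = 0.0420) and H2bc4 (-0.43 ± 0.11, FDR = 0.0298) in the authors' deposited table, but after removal of that trend their values of -0.59 (FDR = 0.0530) and -0.37 (FDR = 0.0565) were no longer called. Among variants, H2afv, encoding an H2A.Z protein found at promoters, fell by 0.35 ± 0.08, and Macroh2a1, encoding a large H2A variant linked to silent chromatin, by 0.24 ± 0.07 in the authors' deposited table. H3f3b was the member that rose, by 0.32 ± 0.05 (FDR = 0.00755) in the authors' deposited table. Its levels were 6.98, 7.03, 6.93 and 7.25 log2 CPM in control saline, control LPS, cKO saline and cKO LPS, highest in cKO LPS.

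Below the threshold, H4 genes leaned the same way in cKO mice. Of the H4 genes, 12 of 13 lay below 0 in the authors' deposited table (median -0.44), against 50.2% of all genes, and H4c14 lay above at 0.19 ± 0.16. The medians were -0.43 for H3, -0.32 for H2B, -0.18 for H2A, 0.22 for H1 and 0.02 for variants (-0.03 after removal of that trend), against -0.00128 for all genes. The H1 genes were split, with H1f3 at -0.51 ± 0.20 (FDR = 0.0952) and H1f2 at 0.36 ± 0.11 (FDR = 0.0535) in the authors' deposited table. Variants that were not called ranged from -0.17 ± 0.07 in H3f3a to 0.35 ± 0.19 in H1f10 in the authors' deposited table. The widest values were those of Hist1h4m and of Hist1h2ao (0.42 ± 0.65, FDR = 0.671) in the authors' deposited table. Genes H3c11 (-0.76 ± 0.25, FDR = 0.0564), H2bc3 (-0.74 ± 0.23, FDR = 0.0519) and H2bc8 (-0.59 ± 0.19, FDR = 0.0545) did not pass in the authors' deposited table.

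The members called lower in both genotypes were H4c8, H4c9 and Hist1h4m, that is 18.8% of the members' lower calls in controls and 42.9% of those in cKO mice. Over all genes, 218 were called lower in both, 47.8% of the lower calls in controls and 18.6% of those in cKO mice. A total of 31 members (68.9%) lay below 0 in both, against 37.5% of all genes, where 50.5% lay below 0 in controls and 50.2% in cKO mice. Across the 45 members the log2 fold changes of the genotypes had a Pearson r of 0.65 and a Spearman rho of 0.64, against an r of 0.68 over all genes. Within the 13 H4 genes r was 0.89 and rho 0.79. Members share reads and libraries, so these values are descriptions across genes. All 13 H4 genes had a lower log2 fold change after LPS in controls than in cKO mice. In controls, where the family was chosen, 41 of the 45 members lay below 0. The H4 count, the members below 0 in both and the shared calls thus turn on that choice, and nothing is read from them.

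**Figure D3:**
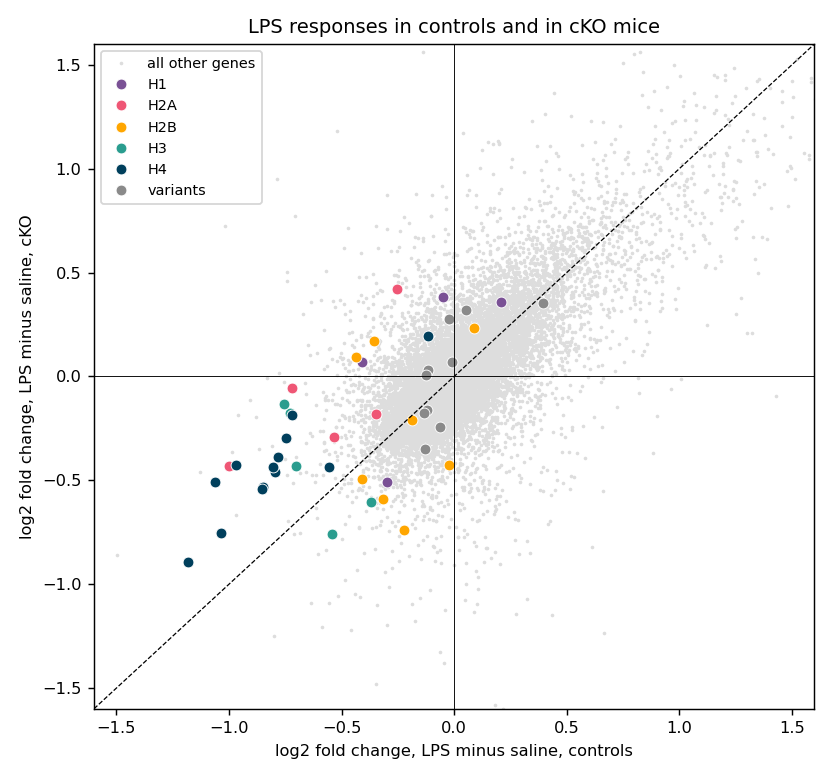
Log2 fold change of LPS against saline in cKO mice over that in controls, with histone genes coloured by class, all other genes in grey within -1.6 to 1.6, and the dashed line for equal values. H4 genes lie above the dashed line in 13 of 13 cases, and 12 of 13 lie below 0 on both axes. Both counts turn on the comparison in controls by which the family was chosen.

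The difference between the genotypes' responses was tested per gene over all genes. Errors and p-values here, unless named as from F, come from normal quantiles of the deposited p-values. Of the 45 members, 0 passed (0.00725% of all genes did), and 0 passed with standard errors taken from F. At an unadjusted p below 0.05, 6 members had a higher and 1 a lower log2 fold change in cKO mice, against 3.02% of all genes higher and 3.5% lower. The smallest adjusted p among members was 0.657, shared by H1f4, H2bc18, H2bc4 and H3f3b. For H4 genes the difference lay above 0 in 13 of 13 cases (49.9% of all genes), with a median of 0.34, and for H4c4 it was 0.53 ± 0.22 (adjusted p = 0.671). With the standard error taken from F, H4c4 had 0.53 ± 0.16 (adjusted p = 0.357). H2bc4 was the lower member, at -0.40 ± 0.17. This test includes the comparison in controls, so it is not independent of how the family was chosen.

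After LPS, no histone gene was called different between cKO and control cortex. In the authors' deposited table of genotypes after LPS, 0 of 45 members passed, against 0.00725% of all genes. This table shares its LPS libraries with both others, so its values repeat part of theirs. Its control LPS libraries are those of the comparison that led to the choice of the family. Counts and medians here are thus not independent of that choice, and nothing is read from them. At an unadjusted p below 0.05, 8 members were higher in cKO mice and 1 lower in the authors' deposited table, that is 17.8% and 2.22% of the 45, against 5.98% and 6.33% of all genes. The 13 H4 genes all lay above 0 (median 0.25), or 12 of 13 after removal of the trend on GC content and length, where H4c6 turned, against 50.5% of all genes. So did the 5 H2A genes (median 0.39), whereas 3 of 8 H2B genes did (median -0.09). H4c4 had the smallest p, at 0.49 ± 0.12 (p = 0.00218, FDR = 0.245), followed by H2bu2 at 0.56 ± 0.15 (FDR = 0.289) and H3f3b at 0.26 ± 0.07 (FDR = 0.291), in the authors' deposited table from edgeR. H1f4 had 0.44 ± 0.13 (FDR = 0.295) and H2ac20 0.75 ± 0.26 (FDR = 0.334) in the authors' deposited table. The extremes were Hist1h2ao at 1.17 ± 0.86 and H2bc3 at -0.64 ± 0.28 in the authors' deposited table.

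For saline, no table of genotypes was used here, and the difference was estimated from the other 3 fold changes with no test. Of the 45 members, 31 lay below 0 (median -0.06), against 47.3% of all genes, and H4 genes did so in 12 of 13 cases (median -0.10). The fold change in controls, by which the family was chosen, enters this estimate. These counts are thus not independent of that choice. Levels of H4 genes differed between tables by a median of -0.16 in control LPS and -0.11 in cKO LPS, where all genes differed by -0.05 in each. Only the gap between these offsets enters the estimate. From the back-calculated group levels, the H4 median of cKO saline minus control saline was -0.14. With no error and no test, neither value decides whether H4 genes differ in the saline groups.

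Other steps of histone supply were described from gene lists chosen with results of these data known. Over all genes, 3.31% were called lower and 6.46% higher in controls, and 8.52% lower and 10.9% higher in cKO mice. Counts of calls in the lists are descriptions to set beside these shares. Of 24 measured genes of histone mRNA 3′ end formation and decay, 1 fell in controls (median -0.07) and 2 fell in cKO mice (median -0.02), with 0 rising, in the authors' deposited tables. Slbp, encoding the stem-loop binding protein, had -0.17 ± 0.09 (FDR = 0.267) in controls and -0.22 ± 0.09 (FDR = 0.113) in cKO mice in the authors' deposited tables. Snrpb, encoding a core small nuclear ribonucleoprotein, fell in controls by 0.26 ± 0.07 in the authors' deposited table. In cKO mice Lsm11, a component of the U7 particle that cuts histone pre-mRNA, fell by 0.39 ± 0.07, and Lsm1, of the decay machinery, by 0.48 ± 0.11 in the authors' deposited table.

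Of 33 measured histone chaperones and deposition factors, 1 rose in controls (median 0.06) and 5 rose in cKO mice (median 0.08), with 0 falling, in the authors' deposited tables. Among all genes, 6.46% rose in controls and 10.9% in cKO mice, so nothing is read from these counts. Srcap, the ATPase that loads H2A.Z, rose by 0.54 ± 0.12 in controls in the authors' deposited table. Anp32b rose by 1.04 ± 0.24, Ncl, encoding nucleolin, by 0.71 ± 0.18, Anp32e, an H2A.Z chaperone, by 0.39 ± 0.11 and Npm1 by 0.24 ± 0.06 in cKO mice in the authors' deposited table. Cabin1, a subunit of the HIRA complex that deposits H3.3, rose there by 0.18 ± 0.06 in the authors' deposited table.

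Genes of DNA replication and mitosis showed few changes in the direction of the histone genes. Of 29 measured S phase genes, 0 changed in controls (median -0.03), and 1 rose and 1 fell in cKO mice (median 0.06), in the authors' deposited tables. The shares of all genes were 6.46% higher and 3.31% lower in controls, and 10.9% and 8.52% in cKO mice. The S phase genes called in cKO mice were Lig1, a DNA ligase, at 0.60 ± 0.15 and Ccne2, cyclin E2, at -0.41 ± 0.12 in the authors' deposited table. Of 24 genes in the mitosis list, 9 were measured, including the D-type cyclins Ccnd1, Ccnd2 and Ccnd3, which are not specific to mitosis. In controls 3 of the 9 rose and 0 fell (median 0.43) in the authors' deposited table. They were Mki67 (1.75 ± 0.32), Top2a (1.43 ± 0.27) and Cenpe (0.91 ± 0.22) in the authors' deposited table. In cKO mice 0 of the 9 changed (median 0.19), and Mki67 had 0.66 ± 0.43 (FDR = 0.299), in the authors' deposited table. Between genotypes after LPS, 8 of the 9 lay below 0 in the authors' deposited table (median -0.22, against 49.5% of all genes), and 0 were called.

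Other transcripts that normally lack a poly(A) tail mostly lay above 0. Of 8 measured, 3 rose and 1 fell in controls (median 0.68), and 4 rose and 0 fell in cKO mice (median 1.07), in the authors' deposited tables. Set beside these, 6.46% of all genes rose and 3.31% fell in controls, and 10.9% rose and 8.52% fell in cKO mice. Rny3, a Y RNA, fell by 2.44 ± 0.17 in controls, whereas the small nucleolar RNAs Snora73b and Snora73a rose by 1.07 ± 0.27 and 1.02 ± 0.27, in the authors' deposited table. Rnu3a rose by 3.15 ± 0.68 in cKO mice in the authors' deposited table. Its back-calculated levels there were low, at -1.72 log2 CPM in cKO saline and 1.42 in cKO LPS.

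**Figure D4:**
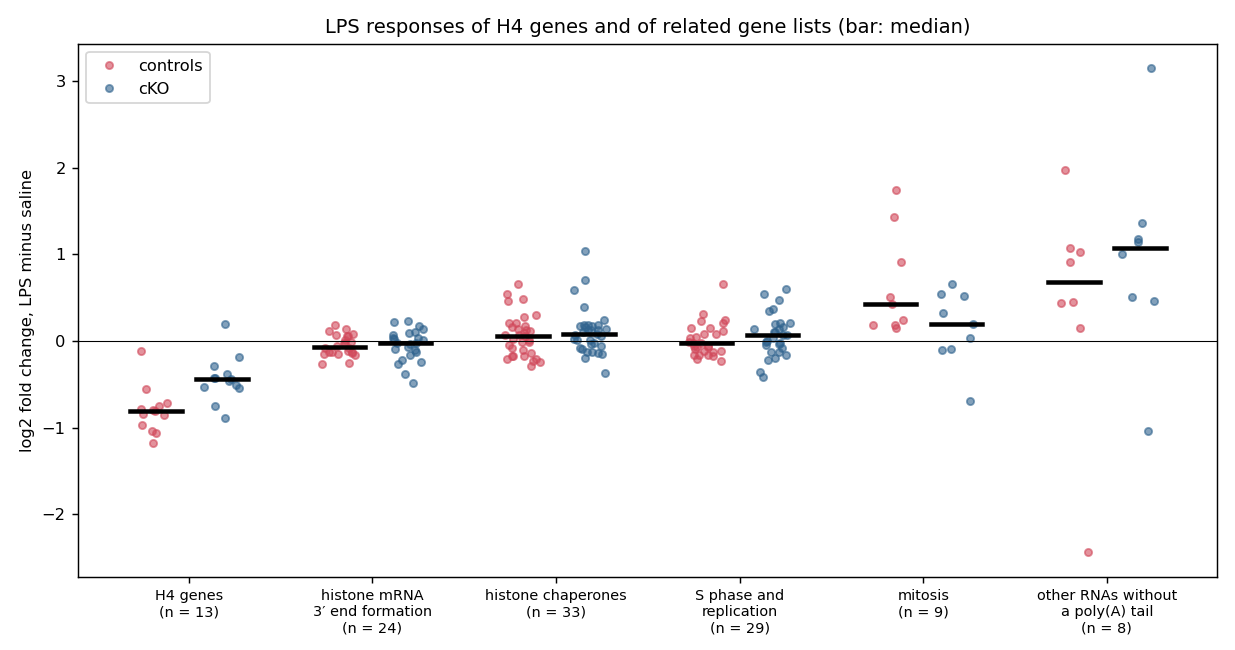
Log2 fold change of LPS against saline for H4 genes and 5 related gene lists, each point a gene, red for controls and blue for cKO mice, with black bars for medians. H4 medians were -0.81 and -0.44, replication medians -0.03 and 0.06, and the medians of other RNAs without a poly(A) tail 0.68 and 1.07.

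Of the cell type markers listed, 5 of 5 astrocyte, 5 of 5 excitatory neuron, 5 of 5 oligodendrocyte precursor and 5 of 5 microglia markers were measured. So were 3 of 3 inhibitory neuron, 4 of 4 oligodendrocyte, 4 of 4 endothelial, 4 of 4 fibroblast and 2 of 4 choroid plexus markers. Of neutrophil, T cell, B cell and erythroid markers 0 were measured. Oligodendrocyte precursors are the main dividing cells of adult cortex, and 0 of their 5 markers changed in controls (median -0.06) or in cKO mice (median -0.11) in the authors' deposited tables. For all genes, 6.46% rose and 3.31% fell in controls, and 10.9% rose and 8.52% fell in cKO mice. Of 5 microglia markers, 3 rose in controls, and 2 rose and 1 fell in cKO mice, in the authors' deposited tables. Endothelial markers rose in 3 of 4 cases in controls and 4 of 4 in cKO mice, and fibroblast markers in 3 of 4 and 1 of 4, in the authors' deposited tables. Of 5 astrocyte markers, 1 fell in controls and 3 fell in cKO mice in the authors' deposited tables. Of 5 excitatory neuron markers, 2 rose in controls and 2 in cKO mice, with 0 falling, in the authors' deposited tables. Inhibitory neuron markers rose in 0 of 3 cases in controls and 2 of 3 in cKO mice, and 0 of 4 oligodendrocyte markers changed in either. Both measured choroid plexus markers of 4 listed lay below 0 after LPS without passing. Ttr stood at 6.72 log2 CPM in control saline, 2.69 in control LPS, 6.76 in cKO saline and 3.93 in cKO LPS, and its -4.03 ± 1.96 (FDR = 0.206) was the lowest log2 fold change of all genes in the authors' deposited table of controls. The part of cell composition in the histone values was not tested. Y-linked Ddx3y stood at -7.2 log2 CPM in control saline against 3.7 in control LPS, 5.9 in cKO saline and 5.7 in cKO LPS. Y-linked Uty stood at -7.35, 2.47, 4.80 and 4.30 log2 CPM in the same order, and Xist at 7.47, 7.33, 4.35 and 5.91. Both Y-linked genes were thus near absent in control saline alone, and Xist lay lower in the cKO groups. In the comparison of controls, a difference in sex between the groups cannot be told apart from treatment. The saline estimate and the difference of the LPS responses use the same control saline group. There a difference in sex cannot be told apart from genotype. The part of sex-linked differences in the histone values was not tested.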

How the data were processed

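RNA was measured in 18 cortex libraries of 4 groups. The submitters' processing notes list edgeR 3.30.3, RSEM, STAR and cutadapt 3.5 beside build GRCm39, with no role or order. For each of 13784 genes the deposited values are, per the file headers, the log2 fold change, the average log2 CPM, F (a score), the p-value and the FDR, a p-value adjusted over all genes. No source used here gives the gene filter, and the depth is unknown. Signs were read as LPS minus saline and cKO minus control: levels of shared groups then differed between tables by an SD over genes of 0.0537 and 0.0503, and any turned sign raised at least 1 of them to 0.222 or more.

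From the deposited values, SE was computed as the absolute fold change over the square root of F, and group levels from mean level, fold change and group sizes. The genotypes' LPS responses were compared by their difference over an SE from normal quantiles of the p-values, adjusted by Benjamini-Hochberg, with Python 3.11.15, pandas 2.3.3, numpy 2.4.6 and scipy 1.17.1. The test was checked on simulated tables. GC content and length were available for 13730 genes and all 45 members. Alternatives were an FDR of 0.10, a minimum fold of 1.5, a mean log2 CPM of at least 1, removal of the GC and length trend, and Benjamini-Yekutieli adjustment. Any member could be named, always including those past the threshold, the member of each class with the highest mean log2 CPM and the extremes of each comparison. Members and lists were chosen with earlier results of these data known. Sequences came from RefSeq and GENCODE M21 on GRCm38, whose coordinates differ from those of the authors' build. Whether mice were separate litters or cages is not stated, so p-values measure the spread between these samples.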

Additional observations from a re-analysis of the deposited data

How the results depend on the processing

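Of the 16 histone genes that fell in controls, 3 (Hist1h4m, H4c8 and H4c4) were called with Benjamini-Yekutieli adjustment, while the other planned settings gave 14 to 20 calls, all lower. In cKO mice the 8 calls became 15 at an FDR of 0.10 (2 higher, 13 lower), 3 with a minimum fold of 1.5 and 0 with Benjamini-Yekutieli adjustment, and 11 after removal of the trend on GC content and length, where H2bc4 and H3c4 were lost and H1f10, H2bc3, H2bc8, H4c6 and Hist1h4n gained. The median of all members was -0.37 in controls and -0.24 in cKO mice. With replication-dependent members alone it was -0.54 and -0.43, and with members that share under 50% of windows, a setting chosen after seeing the data, -0.22 and -0.18. Between genotypes after LPS, and for the difference of responses, 0 members were called under each setting run. No called direction reversed, but after removal of the trend on GC content and length 2 members in controls (H2afx, H2bc4), 5 in cKO mice (H1f0, H2afj, H2bc18, H2bu2, Macroh2a2) and 2 between genotypes (H2afz, H4c6), none of them called, had the other sign. No paired analysis was possible because the deposited tables hold no values per library, and for the same reason no replicate could be left out. Depth is unknown, so no floor is given for low members such as Hist1h2ao.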
